A study of Mus musculus with 4 samples.

Results

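The regions described here are 695 distal peaks from a map of binding by the transcription factor Sp9. They were listed at embryonic day 16.5 (E16.5) and had no match in the list of embryonic day 13.5 (E13.5). They were chosen by their distances in the deposited peak lists: a peak of the E16.5 list was kept when its nearest listed transcription start site (TSS) lay more than 50000 bp and at most 500000 bp away, and when the E13.5 list held no peak of any of its assigned genes within 200 bp of the same signed distance. A peak that a list divided into lettered entries was placed, for each gene, by the entry nearest to the TSS only. They are 695 of the 6022 peaks with a gene in the E16.5 list, and of the 11869 such peaks in both lists. Of the 2355 peaks of the E16.5 list in this distance range, 29.5% were kept, a share that the rule itself fixes. The study mapped where Sp9 binds DNA by ChIP-seq (sequencing of immunoprecipitated chromatin), with basal ganglia from wild-type embryos of the CD1 mouse strain, taken at E16.5 and at E13.5. Each stage had 1 library made with a rabbit antibody to Sp9 and 1 input library made without antibody, and no sample carried a mutation or a treatment. The labels do not say how many embryos were pooled. The comparison is thus between 2 single libraries, with no replicate check and no test, and their read totals are unknown. A peak missing from a list is one that did not pass the authors' threshold, and weaker binding there was not measured.

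Sp9 is a zinc finger protein of the SP/KLF family, whose members bind GC-rich DNA. It is made in progenitors and young neurons of the ganglionic eminences, the embryonic source of striatal projection neurons and of many interneurons. Regulators of development often have enhancers far from the start site, within introns or in the gene-poor stretches around them. A distal peak can lie in such an element, but it does not show which gene the element acts on. The lists name the genes whose regulatory domain reaches a peak, usually the gene on either side of it. In what follows, upstream and downstream are relative to the TSS of the named gene on the mouse mm9 build, so that downstream positions include the gene body.

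The distances of the E16.5-only distal peaks ran from 50231 to 498245 bp, with a median of 141 kb (quartiles 85.8 and 258 kb, n = 695). The 1660 peaks of the E16.5 list that recurred in the E13.5 list in the same distance range had a median of 153 kb (89.7 and 252 kb), and the 1241 E13.5-only distal peaks also had a median of 153 kb (89.0 and 253 kb). The classes therefore lay at similar distances. Of the E16.5-only peaks, 229 (32.9%, 95% Wilson interval 29.6 to 36.5) lay 50 to 100 kb from the nearest TSS, against 29.7% (27.5 to 31.9) of the recurring and 30.5% (28.0 to 33.1) of the E13.5-only peaks. Intervals of this kind cover counting error over peaks only, and neighbouring peaks are not independent.

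**Figure D1:**
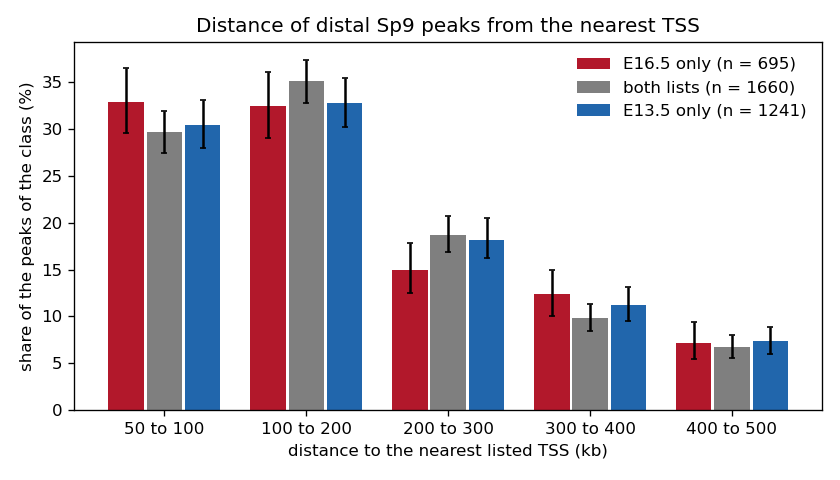
Share of distal Sp9 peaks (%) by distance to the nearest listed TSS (kb), for E16.5-only peaks (red, 695), peaks in both lists (grey, 1660) and E13.5-only peaks (blue, 1241). Bars are shares of each class and lines are 95% Wilson intervals. The intervals of the 3 classes overlap in every distance bin, and about 1 in 3 peaks of each class falls within 100 kb.

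Most E16.5-only distal peaks were assigned to a pair of genes, and whether they lay within a gene body was not determined. Of the 695, 564 were assigned to 2 genes (81.2%, 78.1 to 83.9), 130 to 1 gene and 1 to 3 genes, and 83.1% of the recurring distal peaks were assigned to 2 genes. The peak was upstream of its nearest TSS in 45.2% of cases (41.5 to 48.9), against 42.4% (40.1 to 44.8) of the recurring peaks. Among those with 2 genes, 98 lay upstream of both TSSs, 172 downstream of both, and 294 upstream of one and downstream of the other. The 2 TSS distances summed to a median of 481 kb in the E16.5-only class, against 532 kb in the recurring class and 534 kb in the E13.5-only class. By position alone, the E16.5-only peaks were thus little different from the distal peaks around them.

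How far each E16.5-only distal peak lay from any E13.5 peak varied widely. The closest E13.5 peak of an assigned gene was at most 500 bp away for 40 peaks (5.76%), at most 1000 bp away for 53 and at most 5000 bp away for 103 (14.8%). It was more than 50000 bp away for 330 peaks (47.5%). For 82 peaks (11.8%, 9.61 to 14.4) no assigned gene had any E13.5 peak. Among the 613 peaks with an E13.5 peak at their genes, the median distance to it was 57.6 kb. The recurring distal peaks had a median shift of 36.0 bp between the lists, and 1476 of the 1660 (88.9%) shifted by at most 100 bp. Recurring peaks were defined by a shift within the matching distance, and E16.5-only peaks by the lack of one. That the recurring peaks lay closer to an E13.5 peak is therefore fixed by the rule and is not a result.

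**Figure D2:**
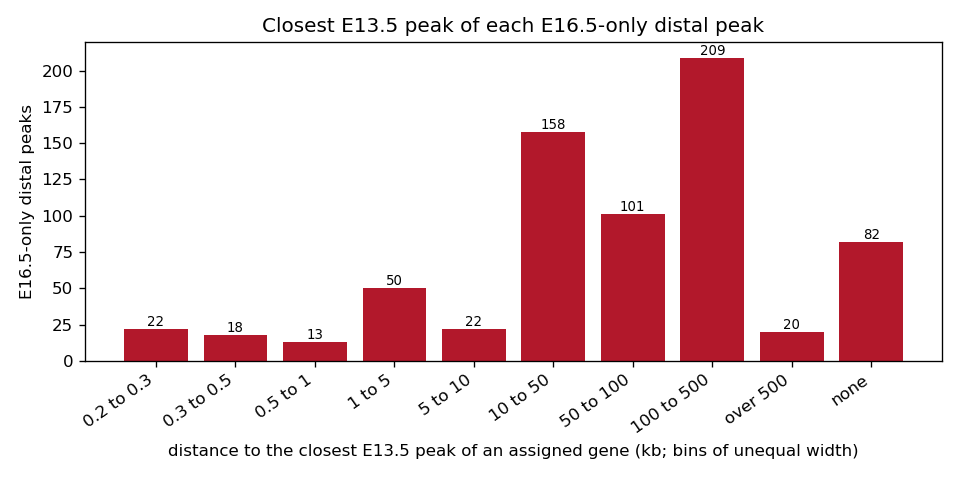
Number of E16.5-only distal peaks (y axis) by the distance to the closest E13.5 peak that shares an assigned gene (x axis, kb, in bins of unequal width). Each bar gives its count, and the bar marked none holds the 82 peaks whose genes have no E13.5 peak. The 40 peaks within 500 bp are at the left, and the 330 peaks with an E13.5 peak more than 50 kb away are in the 3 bars before the last.

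The peaks nearest to the 200 bp limit included sites at genes of the striatum and of axon growth. Six3, a homeodomain transcription factor of D2-type striatal neurons, had a peak 91865 bp upstream at E16.5 and a peak 92082 bp upstream at E13.5, which are 217 bp apart. Epha3, an ephrin receptor of axon guidance, had a peak 57425 bp downstream at E16.5 and one 57216 bp downstream at E13.5, 209 bp apart. Such peaks were counted as E16.5-only by a margin of a few base pairs. The gaps closest to the limit were 202 bp at Gm11146, 209 bp at Epha3 and 211 bp at Il7, and the widest gaps still counted as recurring were 195, 198 and 200 bp at Gm13145, Ap3b1 and Lpp. At the lower distance limit, the nearest peaks inside lay 50231, 50283 and 50334 bp from Ndufb4, Rnf34 and Aqp11. The nearest unmatched peaks outside lay 49757, 49738 and 49684 bp from Erbb4, Prdm16 and Adcy2. At the upper limit, those inside lay 498245, 492790 and 491742 bp from Psmd7, Mki67 and Dlg2, and those outside 508018, 513865 and 515227 bp from Gm10650, Psmd7 and 1700112E06Rik.

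The 695 peaks were assigned to 943 genes, of which 745 had 1 such peak and 198 had 2 or more. Many of these genes had further distal peaks at both stages: 541 of the 943 (57.4%) also had a recurring distal peak, 458 (48.6%) also had an E13.5-only distal peak, and 333 had both kinds. Over all protein-coding genes, 7.28% had a recurring distal peak and 6.23% an E13.5-only one. Thus 277 genes (29.4%) had an E16.5-only distal peak and no other kind of distal peak, and 178 (18.9%) had no E13.5 peak at any distance. Counted by peak, 467 of the 695 (67.2%, 63.6 to 70.6) belonged to at least 1 gene with a recurring distal peak.

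Promoter peaks, here taken as peaks within 1 kb of a TSS, were about as common at the genes of E16.5-only distal peaks as at those of recurring ones. An assigned gene had an E16.5 promoter peak for 167 of the 695 peaks (24.0%, 21.0 to 27.3), against 23.3% (21.3 to 25.3) of the recurring distal peaks. For 114 of the 695 peaks (16.4%) an assigned gene had a promoter peak in the E16.5 list but not in the E13.5 list. For 57 (8.20%) an assigned gene had a promoter peak at both stages. These shares were not computed for the other classes. An E13.5 promoter peak stood at an assigned gene for 13.4% of the E16.5-only, 15.8% of the recurring and 15.2% of the E13.5-only peaks. For the E13.5-only peaks the E16.5 share was 21.0%, so E16.5 promoter peaks were the more common in every class. Whether promoter peaks were gained together with the distal peaks was not tested.

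Because the lists place each peak only by its TSS distance, the bases under the distal peaks were not analysed here. At a few genes the E16.5 list also held a peak within the stretch from 250 bp before to 50 bp after the TSS, whose sequence is known. These promoters are shown for 3 neuronal and neural stem cell genes with 2 or 3 E16.5-only distal peaks, chosen after their values were seen. Polr3k, Maml3 and St3gal4, with 3 such peaks and a promoter peak each, hold 0, 0 and 3 GC boxes and are not printed. The sequences are those of RefSeq on the GRCm38.p6 build, 5′ to 3′ on the strand of the gene. Capitals mark the GC box GGGCGG or its reverse complement CCGCCC, a motif bound by SP factors. The start site of RefSeq may differ from that of the authors' gene set.
Map1b, chr13:99516553-99516852, minus strand: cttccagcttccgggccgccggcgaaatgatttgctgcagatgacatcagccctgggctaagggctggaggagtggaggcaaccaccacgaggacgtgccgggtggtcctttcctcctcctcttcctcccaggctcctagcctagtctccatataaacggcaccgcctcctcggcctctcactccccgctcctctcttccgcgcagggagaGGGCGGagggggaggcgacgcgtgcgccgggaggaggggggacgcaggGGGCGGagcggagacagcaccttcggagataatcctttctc
Sox4, chr13:28953650-28953949, minus strand: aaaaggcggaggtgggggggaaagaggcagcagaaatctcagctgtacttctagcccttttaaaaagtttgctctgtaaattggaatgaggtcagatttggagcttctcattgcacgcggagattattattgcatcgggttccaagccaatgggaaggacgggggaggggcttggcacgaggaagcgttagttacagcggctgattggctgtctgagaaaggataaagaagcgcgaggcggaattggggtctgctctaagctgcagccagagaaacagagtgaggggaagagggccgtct
Sox2, chr3:34649745-34650044, plus strand: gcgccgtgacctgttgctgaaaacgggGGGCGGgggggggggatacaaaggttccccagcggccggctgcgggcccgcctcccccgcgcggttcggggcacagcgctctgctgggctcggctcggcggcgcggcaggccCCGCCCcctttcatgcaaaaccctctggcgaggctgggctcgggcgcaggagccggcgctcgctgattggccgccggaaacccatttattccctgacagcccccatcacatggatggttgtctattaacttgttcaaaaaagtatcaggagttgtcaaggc

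Map1b encodes a microtubule-associated protein of growing axons. Its E16.5 promoter peak lay 12 bp downstream of the TSS, the E13.5 list had none there, and its promoter holds 2 GC boxes. Sox4, a transcription factor of newborn neurons, had promoter peaks 1 bp upstream at E16.5 and 64 bp upstream at E13.5, and its promoter holds 0 GC boxes. Sox2, a factor that maintains neural stem cells, had an E16.5 promoter peak 137 bp upstream, again without one at E13.5, and its promoter holds 2. Of 17492 protein-coding genes with a promoter in the table, taking the first start listed for each, 46.3% hold a GC box on either strand, and of the 1069 among them with an E16.5 peak in this stretch 82.0% do. A comparison over all genes of the E16.5-only distal peaks was void, because only 46 of the 62 genes with an E16.5 peak in this stretch (74.2%) had a sequence. A match shows the letters only, not a site that Sp9 used.

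A small part of the E16.5-only distal peaks was packed closely at a few genes. Of the 943 genes, 9 had 5 or more, and these 9 genes accounted for 46 of the 695 peaks (6.62%). Olfr161, an olfactory receptor gene, had 11, all between 322356 and 349367 bp upstream, with 1 recurring peak among them at 332684 bp. Slc12a2, which encodes a sodium, potassium and chloride cotransporter, had 10, between 138637 and 219114 bp upstream. The same 10 peaks were assigned to 1700011I03Rik on the other side. Among the 12 distal peaks of Slc12a2 at E16.5, 2 recurred, and the E13.5 list held 3 peaks of the gene in all.

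The neighbouring prolactin family genes Prl2c2 and Prl2c3 shared 6 E16.5-only peaks, from 75941 to 103906 bp downstream of Prl2c2. Their only E13.5 peaks lay at 75071 and 111113 bp downstream of Prl2c2, on either side of the group. Vmn1r2, a vomeronasal receptor gene, had 4 peaks within a stretch of 4.91 kb, from 86129 to 91035 bp upstream, and no E13.5 peak at all. The sequence under these groups of peaks was not analysed here.

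At the other genes with many E16.5-only distal peaks, the number of E13.5 peaks varied widely. Cwc22, which encodes a spliceosome-associated protein, had 7 among 22 E16.5 peaks, and 57 peaks at E13.5. Its neighbour Ube2e3, a ubiquitin-conjugating enzyme gene, shared 5 of the 7. The gene 4933400A11Rik had 7 among 13 peaks at E16.5, and 13 peaks at E13.5. Sfi1, which encodes a centrin-binding protein, had 4 among 7 at E16.5, and 6 peaks at E13.5. Zmiz1, which encodes a transcriptional coregulator, had 5 among 8 at E16.5, from 61876 to 808447 bp away, and 3 peaks at E13.5. In contrast to the packed groups, those of Zmiz1 were spread on both sides of the TSS.

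Another E16.5 peak lay within 2 kb of 50 of 695 E16.5-only distal peaks (7.19%, 5.50 to 9.36), against 64 of 1660 recurring ones (3.86%, 3.03 to 4.89). The list divided 28 of the 695 into lettered entries (4.03%, 2.80 to 5.76), against 27 of the 1660 (1.63%, 1.12 to 2.36). Neither pair of intervals overlapped. For a divided peak only the entry nearest to each TSS was matched, so its other entries could not give a match. The share with lettered entries is therefore not independent of the rule. The E13.5-only distal peaks had 4.43% (3.42 to 5.72) with another E13.5 peak within 2 kb and 2.01% (1.37 to 2.96) with lettered entries, and these intervals overlapped those of the E16.5-only peaks. Without the peaks of the 9 genes above, the shares were 4.31% (interval up to 6.16%) against 3.59% (from 2.80%) for a neighbour within 2 kb, and 2.77% (1.76 to 4.34) against 1.46% (0.984 to 2.17) for lettered entries. Both pairs of intervals then overlapped. The order of the classes also depended on the matching. With peaks matched within 5000 bp, the shares were 2.53% (1.54 to 4.14) of E16.5-only against 5.62% (4.63 to 6.79) of recurring peaks for a neighbour within 2 kb, and 1.69% against 2.55% for lettered entries. With matching within 1000 bp they were 5.45% against 4.61%, and 2.34% in each class. With each lettered entry counted as a peak, 19.2% of E16.5-only and 8.93% of recurring peaks had a neighbour within 2 kb. The most divided E16.5-only peaks were 1 of 4933400A11Rik with 13 entries and 2 of Cwc22 with 10 entries each.

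Which genes of neural development lay next to E16.5-only distal peaks was described with 25 gene lists. Of their 482 distinct genes, 103 (21.4%) were assigned such a peak, against 3.98% of the 21900 protein-coding genes. This assignment favours genes in gene-poor regions, where regulatory domains reach farther. Among list genes with any distal peak at E16.5, 103 of 208 (49.5%) had an E16.5-only one, against 44.3% of the 1970 protein-coding genes with any. A gene with more distal peaks has more occasions to hold an E16.5-only one, and the number per gene was not taken into account. Having any distal peak at E16.5 was also more frequent among the list genes, with 208 of 482 (43.2%) against 1970 of the 21900. No list was tested. By the distance rule, a peak given below at more than 500 kb from a named gene lay nearer to another gene.

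**Figure D3:**
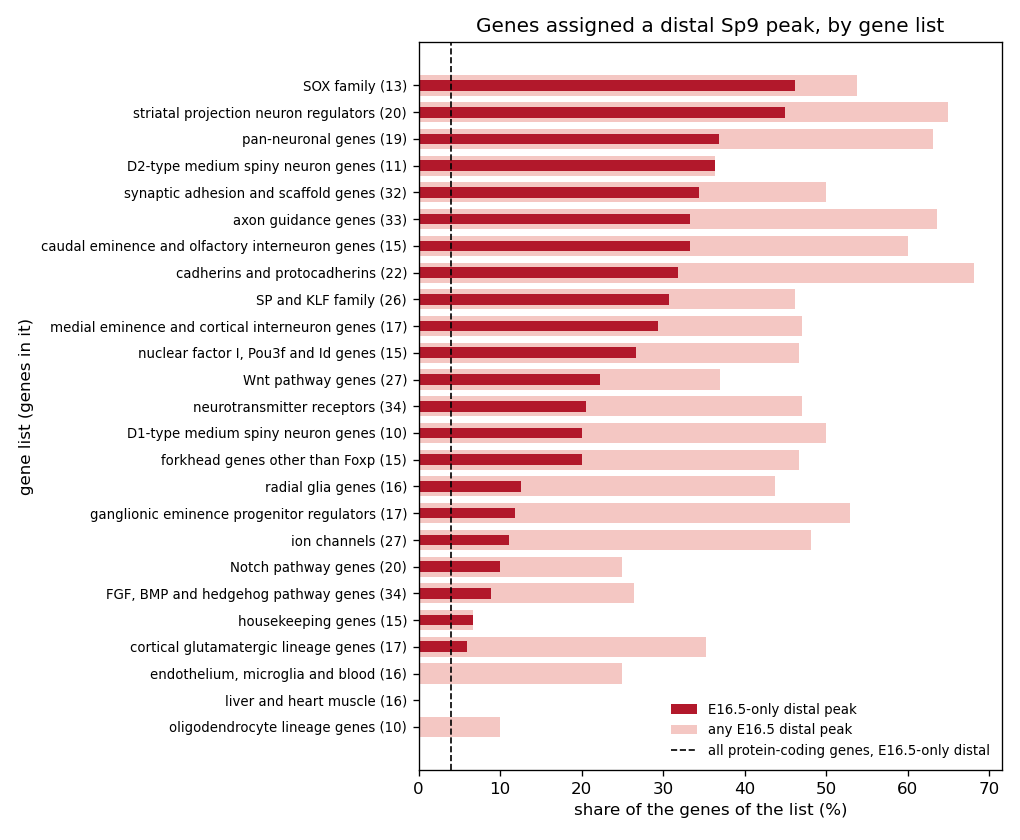
Share of the genes of each list (%, x axis) that were assigned an E16.5-only distal peak (dark bars) or any distal peak of the E16.5 list (pale bars), with the number of genes in each list in brackets. The dashed line marks the 3.98% of all protein-coding genes with an E16.5-only distal peak. The SOX family and the striatal regulators stand at the top, and the 3 lists at the bottom, for other cell types and tissues, have no gene with such a peak.

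The SOX family of transcription factors, which act from neural stem cells to differentiating neurons and glia, had the highest share when counted by gene. Of its 13 genes, 6 had an E16.5-only distal peak, and 7 had any distal peak at E16.5. The E16.5-only peaks numbered 17 of the 46 distal E16.5 peaks of the family, and the E13.5 list held 21 E13.5-only distal peaks of it. Counted by peak, the family did not have the highest proportion of E16.5-only peaks. Cadherins and protocadherins had 11 of 26, and Notch pathway genes 4 of 10. Sox11, a factor of newborn neurons, had 4, at 811283, 742971 and 713116 bp upstream and 421900 bp downstream. Between 412260 and 464804 bp downstream Sox11 had 4 recurring peaks, so its E16.5-only peak at 421900 bp stood within an existing group. The 3 upstream peaks were the only peaks of Sox11 that far upstream in either list, and they lay nearer to Dcdc2c.

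Sox6, a factor of medial eminence interneurons, had 4 E16.5-only peaks, at 185699, 333836, 700291 and 820055 bp downstream. The last 2 lay nearer to the next gene, Gm6816. Sox4 had 3, at 443912 and 62048 bp upstream and 357144 bp downstream, and the one at 62048 bp had an E13.5 peak at 61702 bp, 346 bp away. Sox9, a glial and stem cell factor, also had 3, at 189325 bp upstream and at 260584 and 718575 bp downstream, and the upstream one lay nearer to Gm11678. Sox2 had 2, at 87752 bp upstream and 702808 bp downstream. The upstream one lay next to a recurring Sox2 peak at 88431 bp.

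Regulators of striatal projection neurons came next, with 9 of 20 genes against 13 of 20 with any distal peak at E16.5. Counted by peak, 13 of their 53 distal E16.5 peaks were E16.5-only, a lower proportion than the 29.5% of all distal E16.5 peaks. The E13.5 list held 28 E13.5-only ones. Meis2, a TALE homeodomain factor of striatal neurons, had 3 E16.5-only peaks, at 747080, 136499 and 116356 bp upstream, beside 5 recurring distal peaks. The farthest one lay 66581 bp from Tmco5. Mef2c, a MADS-box factor of neuronal maturation and synapses, had 3 close together, at 217884, 223925 and 227920 bp downstream, between recurring peaks at 211857 and 246792 bp. The E13.5 list held a Mef2c peak at 226300 bp in the same stretch, more than 1 kb from each of them. Foxo1, a forkhead factor, shared with Maml3 a peak 71777 bp upstream of Foxo1 and 91669 bp upstream of Maml3.

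Further regulators had 1 E16.5-only peak each. The peak of Foxp2, a forkhead factor of striatal neurons, lay 100829 bp downstream, and that of the retinoic acid receptor gene Rarb 261035 bp upstream. Foxp1, Foxp4 and Ikzf2 had 1 peak each as well, and at these 3 the peak lay nearer to a different gene.

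Of the genes of D2-type medium spiny neurons, 4 of 11 had an E16.5-only distal peak, and the same number had any distal peak at E16.5. For the D1 type the counts were 2 of 10 and 5 of 10. Six3 had the peak at 91865 bp upstream described above, besides recurring peaks at 226673 and 158369 bp, and an E16.5 promoter peak 5 bp upstream. Sp8, the close paralogue of Sp9, had 2, at 374938 and 198413 bp upstream, both shared with Sp4, and the first lay nearer to Sp4, at 169951 bp. Grik3, a kainate receptor subunit gene, had 1 E16.5-only peak, 411095 bp downstream and nearer to Csf3r, beside 6 recurring distal peaks. The fourth gene was Ptprm, with a peak 589634 bp away and thus nearer to another gene. Only 2 of the 4 genes were the nearest gene of such a peak. Of the 17 distal E16.5 peaks of the D2-type genes, 5 were E16.5-only, a proportion close to that of all distal peaks. The E13.5 list held 7 E13.5-only ones.

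Ebf1, a factor of D1-type neurons, had 2 E16.5-only peaks, at 95244 and 265653 bp downstream. Zfp521, a zinc finger factor of the same neurons, had 2 as well, at 230314 bp upstream, slightly nearer to Gm5160, and 152354 bp downstream. The dopamine receptor genes Drd1 (listed as Drd1a) and Drd2 had none, and neither had Sp9 itself. The only E16.5 peak of Drd2, 67984 bp downstream, was 18410 bp from Ankk1 and so too close to a TSS to count as distal.

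**Figure D4:**
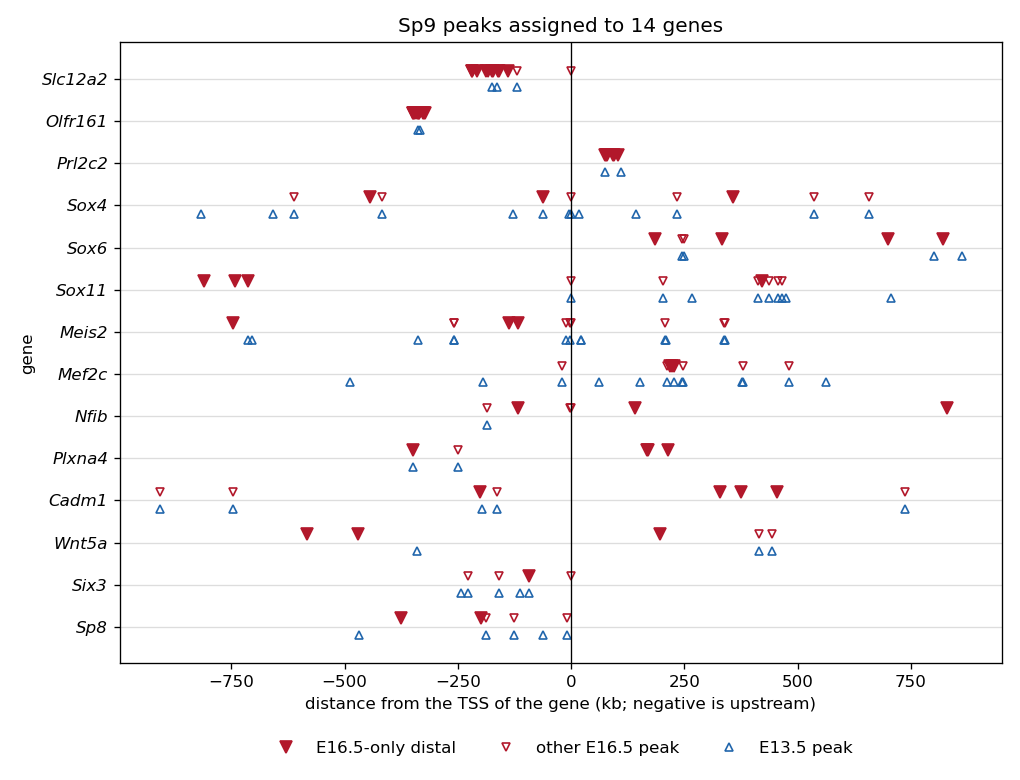
Sp9 peaks assigned to 14 genes, by distance from the TSS of each gene (kb, negative is upstream). Filled red triangles are E16.5-only distal peaks, open red triangles are other E16.5 peaks and open blue triangles are E13.5 peaks. The peaks of Slc12a2, Olfr161 and Prl2c2 form tight groups, whereas those of Sox6, Plxna4, Cadm1 and Wnt5a are spread more widely.

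Of 33 axon guidance genes, 11 had an E16.5-only distal peak, 21 had any distal peak at E16.5, and all 11 were the nearest gene of such a peak. Of their 60 distal peaks at E16.5, 19 were E16.5-only, a proportion close to that of all distal peaks, and they held 44 E13.5-only distal peaks. Plxna4, a semaphorin receptor, had 4, at 348433 bp upstream and 167435, 169559 and 213961 bp downstream. The upstream one had an E13.5 peak at 348697 bp, 264 bp away, and lay nearer to Chchd3. The 3 downstream ones had no E13.5 peak of the gene on the downstream side. Slit3, a ligand that repels axons, had 2, at 81768 bp upstream and 102892 bp downstream. Epha3 had a second one 302874 bp upstream, besides the one near the 200 bp limit.

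Of 32 genes for synaptic adhesion and scaffolds, 11 had an E16.5-only distal peak and 16 had any. Cadm1, an immunoglobulin adhesion molecule of synapses, had 4, at 201178 bp upstream and 328704, 374422 and 455617 bp downstream, the last nearer to Nxpe2. Slitrk3, an adhesion protein of inhibitory synapses, had 2, at 333388 bp upstream, slightly nearer to Bche, and at 72781 bp upstream, and the E13.5 list held a single peak of it at 624049 bp. Ntm, an adhesion molecule of neurites, had 2, at 321667 bp upstream, nearer to Snx19, and 144510 bp downstream. Among cadherins and protocadherins, 7 of 22 genes had an E16.5-only distal peak and 15 had any. Pcdh10 and Pcdh9, protocadherins of the developing brain, had 2 each. Those of Pcdh10 lay 278709 and 443903 bp downstream, and those of Pcdh9 257060 and 456944 bp downstream. Cdh4 also had 2, at 817514 bp upstream and 136672 bp downstream.

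Neuronal genes in general had E16.5-only distal peaks in 7 of 19 cases, with 12 of 19 having any. Elavl2, an RNA-binding protein of neurons, had 2, at 655595 and 82336 bp upstream, the first 91642 bp from Izumo3, and no E13.5 peak at any distance. Gap43, a protein of growth cones, had 2, at 534902 bp upstream and 71291 bp downstream, and the first had an E13.5 peak at 535300 bp, 398 bp away. Dcx, a microtubule protein of migrating neurons, had 1 at 51845 bp downstream, close to the lower distance limit.

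Interneuron and progenitor lists differed in their counts. Of 17 genes of the medial eminence and cortical interneurons, 5 had an E16.5-only distal peak and 8 had any, and of 15 genes of the caudal eminence and olfactory interneurons 5 and 9. Erbb4, a neuregulin receptor of migrating interneurons, had 2, at 95517 bp upstream and 268241 bp downstream. Nr2f1, a nuclear receptor of the caudal eminence, had 1 at 227904 bp upstream, and Prokr2, a receptor of olfactory neurogenesis, had its only E16.5 peak 83886 bp upstream, with none at E13.5. Of 17 progenitor regulators of the ganglionic eminences, only Tle4 and Dlx6 had one, although 9 had a distal peak at E16.5. Tle4, a Groucho corepressor, had 3, at 948583 bp upstream and 259092 and 431965 bp downstream, the last nearer to Olfr1505. Dlx6, a homeobox gene of GABAergic neurons, had 1 at 81747 bp upstream. Whether these lists differ from each other was not tested.

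The SP/KLF family and other transcription factors gave intermediate counts. Of 26 SP/KLF genes, 8 had an E16.5-only distal peak and 12 had any, and only 5 were the nearest gene of one. Klf12, a repressor of the family, had 2, at 564037 and 134949 bp upstream. Of the nuclear factor I, Pou3f and Id genes, 4 of 15 had one and 7 had any. Nfib, a factor of neural and glial differentiation, had 3, at 117293 bp upstream and 140819 and 830060 bp downstream. Its only E13.5 peak lay 185992 bp upstream and recurred at 186102 bp. Id4, an inhibitor of basic helix-loop-helix factors, had 2, at 100842 and 122920 bp downstream. Of the 15 forkhead genes outside the Foxp group, 7 had any distal peak at E16.5 and 3 had an E16.5-only one. Among these 3 was Foxn3, with E16.5-only peaks at 234092 bp upstream and 89175 bp downstream.

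Counts also varied between signalling pathways, and whether the pathways differ was not tested. Any distal peak at E16.5 was assigned to 10 of 27 Wnt pathway genes and 5 of 20 Notch pathway genes. For genes of the FGF, BMP and hedgehog pathways it was 9 of 34. An E16.5-only distal peak was assigned to 6, 2 and 3 genes of these lists. Wnt5a, a ligand of planar polarity and axon guidance, had 3, at 583763 and 471099 bp upstream, both nearer to Erc2, and 195528 bp downstream. Maml3, a Notch coactivator, had 3, at 91669 bp upstream, nearer to Foxo1, and at 103270 and 355322 bp downstream, the last nearer to Gm10729. Maml3 also had an E16.5 promoter peak 166 bp upstream. Fgfr2, a fibroblast growth factor receptor, had 2, at 104137 bp upstream and 466788 bp downstream, the second nearer to Wdr11.

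Of 34 neurotransmitter receptor genes, 16 had any distal peak at E16.5 and 7 had an E16.5-only one. Ion channel genes had any distal peak in 13 of 27 cases and an E16.5-only one in 3. Cacna2d3, a calcium channel subunit, had 3, at 303655, 378692 and 518692 bp downstream, the last 2 nearer to Lrtm1. Radial glia genes had any distal peak at E16.5 in 7 of 16 cases, and genes of the cortical glutamatergic lineage in 6 of 17. An E16.5-only one was assigned to 2 radial glia genes, Sox2 and Ptprz1, and to 1 cortical gene, Cux2, where it lay nearer to Fam109a. Of 15 housekeeping genes 1 had one, Ywhaz, at 66905 bp downstream. For cell types that the dissected tissue could also hold, the counts were 0 of 10 oligodendrocyte lineage genes and 0 of 16 genes of endothelium, microglia and blood. For tissues it should not hold, the count was 0 of 16 liver and heart muscle genes. The share over all protein-coding genes was 3.98%, so lists this short can easily hold none, and these counts check nothing. Any distal peak at E16.5 was assigned to 1, 4 and 0 genes of these lists, against 1970 of the 21900 protein-coding genes.

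Of the 178 genes with no E13.5 peak at all, 17 had 2 or more E16.5-only distal peaks, and they were singled out after their values were seen. After Vmn1r2 came the axonemal dynein gene Dnahc8 with 3 among 5 E16.5 peaks, from 101465 to 187830 bp downstream. Dlk1, a Notch-related imprinted gene, had 2, the nearer at 59313 bp. Pknox2, a TALE homeodomain factor, also had 2, the nearer at 63899 bp. Rps6ka2, a ribosomal S6 kinase gene, had 2, and 1 E16.5 promoter peak.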

How the data were processed

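Each deposited list is text with a row per gene, holding peak numbers and signed TSS distances in bp on mm9, per the file headers. A gene's domain covered 5000 bp before and 1000 bp after its TSS and could extend by up to 1000000 bp, and curated domains were included. Tools named by the submitters' processing notes are MACS2 2.1.0, BWA 0.6.2, bcl2fastq 1.8.4 and CASAVA 1.8.2, with no roles. The sources used here do not give the authors' peak threshold. The lists hold no height, width or coordinate, so depth and peak strength are unknown. Input libraries were not analysed on their own.

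Lettered entries of a number were counted as 1 peak, placed for each gene at the entry nearest to its TSS. Only that distance entered the matching, so a match at another entry was not seen. With each entry counted as a peak, 30.9% of the E16.5 distal entries had no E13.5 match, against 29.5%. Numbers with no listed gene (108 at E16.5 and 135 at E13.5) could not be placed or matched. Gene names were matched to RefSeq genes of GRCm38.p6, for names and gene type only. Of the 943 genes, 915 matched. A synonym was used only where the lists did not hold the gene by its symbol. The matching was run on simulated lists with known answers, with shifts of at most 100 bp or far beyond the limit. Gaps near 200 bp and lettered entries were not tested in this way.

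The text names the 10 genes with the most E16.5-only distal peaks, up to 3 genes of each list with the most, Sp8, Sp9, Six3, Drd1 and Drd2, and the peaks nearest to each limit. Foxp1, Foxp2, Foxp4, Ikzf2, Rarb, Ptprm, Sox9, Map1b, Vmn1r2 and the genes without an E13.5 peak were named after their values were seen. A result on 1 further gene is not reported here. The members and the lists were chosen with earlier results of these data known. Analyses used Python 3.11.15, numpy 2.4.6, scipy 1.17.1 and matplotlib 3.10.9.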

Additional observations from a re-analysis of the deposited data

How the results depend on the processing

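Across 9 alternatives, 67 of 81 compared values stayed within their interval, or within 1.5 times for counts, and 14 moved. Matching at the nearest gene only left every value unchanged. The shift of a peak is generally the same at each of its genes, so the values kept under that setting check little. The number of E16.5-only distal peaks ran from 466 (over 100 to 500 kb) to 941 (over 20 to 500 kb), against 695. The share of E16.5 distal peaks without an E13.5 match was 37.3% with matching within 100 bp, 27.3% within 1000 bp and 25.1% within 5000 bp, against 29.5%. Over 100 to 500 kb the median distance was 204 kb, the share with 2 genes 76.6% and the number of genes 623; over 20 to 500 kb the median was 99.5 kb. These follow from the limits themselves. The share with another E16.5 peak within 2 kb was 5.45% with matching within 1000 bp, 2.53% within 5000 bp, 19.2% with lettered entries counted singly and 4.31% without the 9 genes that hold 5 or more. The share divided into lettered entries was 2.34%, 1.69% and 2.77% with matching within 1000 bp, within 5000 bp and without those genes. These 2 shares and their alternatives were chosen after seeing the data, and the cause was not tested. Giving each peak to its nearest gene only left 76 list genes, against 103. No paired analysis was possible because each stage has 1 ChIP library. Without heights or read totals, a peak just under the threshold at E13.5 cannot be told from one that is absent.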
